A study of Mus musculus with 200 samples.

Results

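Myelin genes were followed in the mouse brain after a closed head injury (CHI), a single impact on the midline of the intact skull, and after sham surgery, which is anaesthesia with a scalp incision alone. The members were the 9 rows of the count table whose gene symbol is Mbp, Mobp, Mal, Cnp, Mog, Mag, Opalin, Ermn or Ugt8a, out of 56941 genes in the table, and each symbol matched 1 row. RNA of 1 hemisphere was sequenced from each of 200 perfused mice of 4 strains, labelled IL-1R1 nRestore (34 mice), IL-1R1 eRestore (50), IL-1R1 gKO (55) and C57BL/6J (61), and killed 9, 24 or 72 h after surgery. The CHI and sham groups held 15 and 6, 14 and 6, and 14 and 6 C57BL/6J mice at the 3 times. They held 13 and 6, 12 and 6, and 12 and 6 IL-1R1 gKO mice, 12 and 6, 9 and 5, and 12 and 6 IL-1R1 eRestore mice, and 6 and 4, 8 and 5, and 6 and 5 IL-1R1 nRestore mice. Both sexes were used, except that the IL-1R1 nRestore mice at 72 h were all male, and ages ran from 3.3 to 7.67 months. The 3 IL-1R1 labels name strains altered at the interleukin-1 receptor type 1, but neither the labels nor the study's methods say which part of the gene, which promoter or which Cre line was used. Il1r1 itself was measured at a median of 2.00 TPM, a share of all transcripts corrected for their length, in C57BL/6J mice, 3.94 in IL-1R1 gKO, 3.09 in IL-1R1 eRestore and 3.83 in IL-1R1 nRestore mice, so its level does not check the labels and the strains are named here as labelled.

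Oligodendrocytes wrap the axons of the central nervous system with myelin, a stack of cell membrane from which the cytoplasm has been squeezed out, and this insulation speeds conduction and feeds the axon. The sheath is rich in cholesterol and galactolipids and carries a small set of proteins that are made almost wholly by mature oligodendrocytes, so their transcripts are commonly read as a measure of these cells. In a bulk sample such as a hemisphere, fewer oligodendrocytes and less RNA per oligodendrocyte cannot be told apart. Of the members, Mbp encodes the basic protein that holds the cytoplasmic faces of the membrane together, Mobp a smaller basic protein of the same compact layers, and Mal a proteolipid of membrane traffic. Cnp encodes the nucleotide phosphodiesterase of the non-compact, cytoplasm-filled channels. Mog lies on the outermost surface of the sheath, Mag faces the axon and binds its gangliosides, and Opalin is a transmembrane sialylglycoprotein of oligodendrocytes. Ermn encodes ermin, an actin-binding protein of the mature cell, and Ugt8a the enzyme that joins galactose to ceramide, which makes the galactocerebroside of myelin.

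In the genome build of the files, GRCm39, the members lie on 8 chromosomes and are all protein-coding. Ugt8a spans chr3:125654459-125732736 on the minus strand, Ermn chr2:57934641-57942882 on the minus strand and Opalin chr19:41045254-41065553 on the minus strand. Mobp spans chr9:119973770-120011273 and Cnp chr11:100465730-100482936, both on the plus strand. Mog lies at chr17:37321521-37334350, Mag at chr7:30598464-30614474 and Mal at chr2:127475142-127498615, all on the minus strand. Of the 9, only Mal overlapped no other annotated gene. Dntt overlaps Opalin, Galnt5 overlaps Ermn, Gm40145 overlaps Ugt8a and Dnajc7 overlaps Cnp on the opposite strand, and since the sources do not state whether the libraries or the counting kept the strand, reads from such partners cannot be told apart from the members' own. The promoters of the 3 members that passed the test at 9 h, and of Mobp, which held the most of the letters searched, are printed as the 250 bases before the annotated start on the gene's own strand, from RefSeq on build GRCm38.p6, which matched 8 of the 9 members. Capitals mark ACAAAG and ACAATG, letters that SOX-family factors such as the oligodendrocyte factor Sox10 bind, read on either strand. The windows are chr3:125938653-125938902 for Ugt8a, chr2:58052865-58053114 for Ermn and chr19:41077114-41077363 for Opalin, all minus strand, and chr9:120149492-120149741, plus strand, for Mobp.
Ugt8a: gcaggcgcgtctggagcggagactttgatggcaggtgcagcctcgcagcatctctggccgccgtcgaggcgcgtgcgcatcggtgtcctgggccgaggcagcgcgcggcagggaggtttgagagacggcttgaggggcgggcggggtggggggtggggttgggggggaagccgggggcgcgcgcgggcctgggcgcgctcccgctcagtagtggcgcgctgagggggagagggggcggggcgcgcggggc
Ermn: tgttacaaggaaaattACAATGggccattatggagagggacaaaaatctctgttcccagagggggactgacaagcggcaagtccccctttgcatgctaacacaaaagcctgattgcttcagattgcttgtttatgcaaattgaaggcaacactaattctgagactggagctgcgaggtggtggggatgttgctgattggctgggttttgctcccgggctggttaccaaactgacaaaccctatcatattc
Opalin: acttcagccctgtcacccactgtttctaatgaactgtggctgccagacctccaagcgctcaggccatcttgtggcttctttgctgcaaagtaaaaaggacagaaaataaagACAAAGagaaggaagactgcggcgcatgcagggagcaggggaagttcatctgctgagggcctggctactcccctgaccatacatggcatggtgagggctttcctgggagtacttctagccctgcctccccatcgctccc
Mobp: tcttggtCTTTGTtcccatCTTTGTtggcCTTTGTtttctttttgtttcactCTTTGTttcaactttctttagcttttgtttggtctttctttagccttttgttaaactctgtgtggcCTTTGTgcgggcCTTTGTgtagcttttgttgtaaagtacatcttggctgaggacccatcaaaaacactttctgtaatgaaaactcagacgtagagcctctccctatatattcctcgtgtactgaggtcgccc
The Ugt8a window held neither motif, the Ermn window held 1 ACAATG at position −234 from the start and the Opalin window 1 ACAAAG at position −139. The Mobp window held 6 copies of ACAAAG, all written CTTTGT on the gene's strand. Of the 32851 promoters of this length in the RefSeq table, 16.5% held ACAAAG and 10.7% held ACAATG. The letters CTGGNAC, of the oligodendrocyte factor Myrf, were held by 16.1% of promoters, and the palindrome of the glucocorticoid receptor, searched as GNACA and TGTNC with any 3 bases between them, by 0.387%. Neither was found in the 4 printed windows. Of the members not printed, the Mog and Mal windows held no ACAAAG or ACAATG and the Cnp window held 1 ACAAAG, the same numbers as in Ugt8a and Opalin, so the matches did not separate the called members from the others. The letters CTGGNAC were held once by the Mog window and 2 times by the Cnp window, and 2 of the 3 annotated Mag starts had 1 ACAAAG and 2 CTGGNAC each. These are matches of letters in 1 window, and they say nothing of binding.

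The members were abundant and differed widely in level. Mbp, the most abundant, spans chr18:82493207-82603763 on the plus strand of GRCm39. Per unit length, Mbp was highest with a median of 2557 TPM over the 200 mice (lowest 1390, highest 4130), which ranked 29 among all genes. Mobp followed at 726 TPM (433 to 1297), then Cnp at 216 (120 to 313), Mag at 181.8 (80.8 to 291) and Mal at 179.03 (97.5 to 282). Mog and Ermn were close to each other at 58.3 (30.7 to 93.2) and 57.4 TPM (17.5 to 90.1), and Cnp, Mag and Mal overlapped almost fully in the same way. Ugt8a at 35.5 TPM (9.31 to 56.4) and Opalin at 17.9 TPM (5.26 to 31.2) were the lowest of the 9. Opalin had a median of 340.5 reads per mouse and never fewer than 82, so all 9 members passed the low-count filter in every comparison. Libraries held 14858000 to 57355700 assigned reads, with a median of 20258900. Levels between mice are given from here on as CPM (counts scaled to the size of the library) after trimmed-mean scaling, and differences as log2 fold changes of CHI over sham with their standard error (SE) from edgeR's quasi-likelihood test, adjusted over all genes tested.

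Among the 9 members, Ugt8a changed most at 9 h. In C57BL/6J mice it measured 51.3, 72.3 and 94.7 CPM (lowest, median and highest) in the 6 sham mice and 19.2, 40.4 and 64.4 CPM in the 15 CHI mice. All 15 CHI mice lay below the sham median and 11 lay below the lowest sham mouse. The log2 fold change was −0.82 ± 0.12 (SE), a fall of 43.2% with a 95% interval of −1.07 to −0.56 on the log2 scale, and the adjusted p was 9.3e-05. Ermn measured 82.4, 99.2 and 112.03 CPM in the sham mice and 35.1, 71.05 and 96.9 CPM in the CHI mice, and 10 of the 15 CHI mice were below every sham mouse. Its log2 fold change was −0.48 ± 0.12 with an adjusted p of 0.0096. Opalin, at 12.3, 18.6 and 22.2 CPM in sham and 9.71, 16.1 and 25.2 CPM in CHI mice, overlapped more, and its −0.27 ± 0.11 had an adjusted p of 0.096. These 2 called members, both lower, stand beside 14.1% of all 16967 genes called in this comparison and 7.00% called lower. Counts of CHI mice below every sham mouse, here and further on, were made for the members alone, without a share over all genes.

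**Figure D1:**
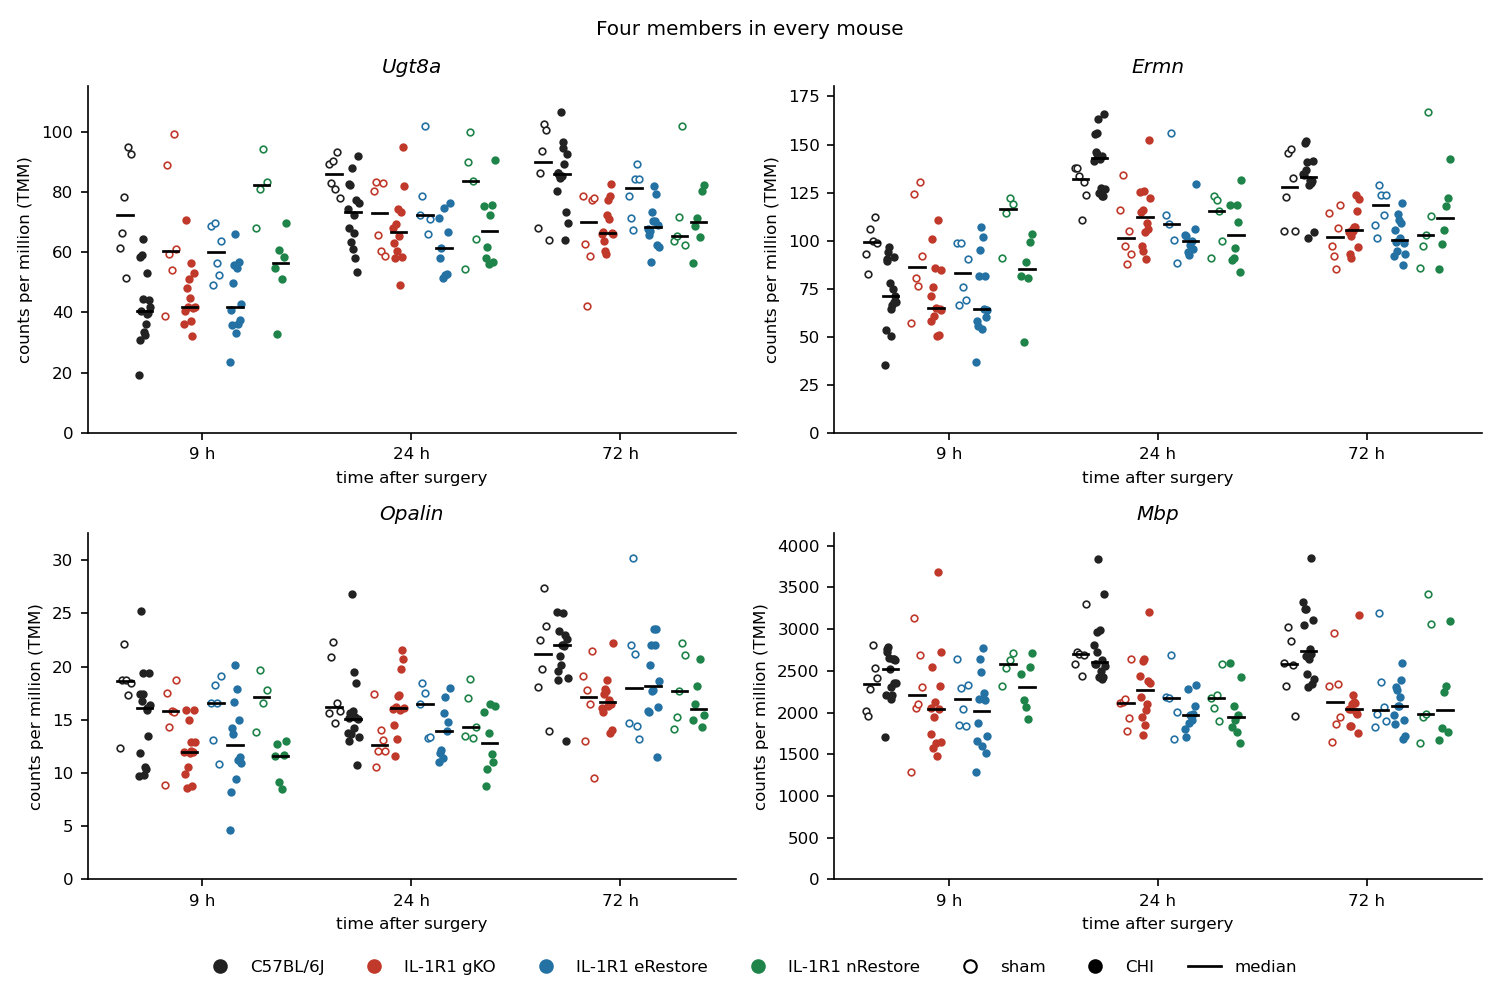
Levels of Ugt8a, Ermn, Opalin and Mbp in every mouse, in CPM on linear axes from 0, by time after surgery; each point is 1 mouse, colours are the 4 strains, open points sham, filled points CHI and bars the group medians. For Ugt8a at 9 h, the CHI medians of 40.4 to 56.5 CPM lie below the sham medians of 60.1 to 82.2 CPM in all 4 strains, while the CHI and sham mice overlap for Mbp.

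The transcripts of the other 6 members did not pass the test in the C57BL/6J mice as a whole, which came from 2 experiments. Mbp measured 1955, 2347 and 2804 CPM in sham and 1706, 2526 and 2789 CPM in CHI mice, a log2 fold change of 0.05 ± 0.08 that did not pass the test (adjusted p = 0.75). Mobp was at 612, 819 and 1516 CPM in sham and 775, 1019 and 1289 CPM in CHI mice, with 0.14 ± 0.12. Mal was at 246, 268 and 411 CPM in sham and 235, 326 and 396 CPM in CHI mice, with 0.14 ± 0.10. The ranges overlapped for each of these 3 genes, but 1 of the 15 CHI mice was below the sham median for Mobp and 2 were for Mal, against 5 for Mbp. The highest sham value of Mobp and Mal came from the same mouse, sham replicate 4, and the other 5 sham mice were at 246 to 291 CPM for Mal. Without that mouse Mal was called as higher (0.29 ± 0.08, adjusted p = 0.023), beside 13.4% of genes, and Mobp and Mag were at 0.30 ± 0.11 (adjusted p = 0.065) and 0.22 ± 0.07 (adjusted p = 0.05002). Cnp (233, 300 and 347 against 210, 314 and 374 CPM), Mog (44.1, 52.4 and 62.5 against 33.3, 54.3 and 73.8 CPM) and Mag (115.7, 143.7 and 161.6 against 96.3, 157.1 and 195.4 CPM) had log2 fold changes of −0.00, −0.00 and 0.08, and with all mice none of the 6 passed the test. Set against Mbp of the same mouse, Ugt8a stood at a median of 3.41% of the Mbp CPM in sham and 1.68% in CHI mice, Ermn at 4.32% and 2.97%, and Opalin at 0.725% and 0.603%.

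In the other 3 strains edgeR called no member at 9 h, and the estimates for Ugt8a were negative and nearer to 0 than in C57BL/6J mice. In IL-1R1 gKO mice Ugt8a measured 38.9, 60.2 and 99.3 CPM in sham and 32.3, 41.7 and 70.7 CPM in CHI mice, a log2 fold change of −0.55 ± 0.15 (adjusted p = 0.13). In IL-1R1 eRestore mice it measured 49.1, 60.1 and 69.6 CPM in sham and 23.4, 41.6 and 65.99 CPM in CHI mice, which was −0.47 ± 0.17 on the log2 scale (adjusted p = 0.10). The 4 IL-1R1 nRestore sham mice had 68.1, 81.1, 94.3 and 83.4 CPM against 32.7, 56.5 and 69.5 CPM in the 6 CHI mice, which gave −0.66 ± 0.20 on the log2 scale (adjusted p = 0.21). The CHI mice below their own sham median numbered 12 of 13, 11 of 12 and 6 of 6, and those below every sham mouse 3, 7 and 5.

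Ermn and Opalin had negative values in each of these strains and were not called in any. Ermn measured 57.2, 86.2 and 130.4 CPM in IL-1R1 gKO sham and 50.3, 64.9 and 110.9 CPM in IL-1R1 gKO CHI mice (−0.38 ± 0.15), and 66.4, 83.02 and 99.003 CPM against 36.7, 64.3 and 106.9 CPM in IL-1R1 eRestore mice (−0.28 ± 0.19). In IL-1R1 nRestore sham mice it measured 90.8, 114.3, 122.2 and 118.9 CPM, and in the CHI mice 47.4, 85.2 and 103.6 CPM (−0.48 ± 0.23). The ranges overlapped in all 3 strains. Opalin measured 8.87, 15.8 and 18.7 CPM against 8.58, 12.01 and 15.9 CPM in IL-1R1 gKO mice (−0.32 ± 0.14), and 10.89, 16.6 and 19.1 CPM against 4.63, 12.6 and 20.1 CPM in IL-1R1 eRestore mice (−0.35 ± 0.22). In IL-1R1 nRestore mice the sham values were 13.8, 19.7, 16.6 and 17.8 CPM and the CHI values 8.49, 11.6 and 13.03 CPM. The log2 fold change was −0.46 ± 0.14 with an adjusted p of 0.15. These values did not overlap, but how many of all genes do not overlap in groups this small was not computed, and nothing is read from it. The share of all genes called was 0.199% in IL-1R1 gKO, 7.34% in IL-1R1 eRestore and 0.608% in IL-1R1 nRestore mice, beside 0 of the 9 members in each, and 3, 2 and 3 members had an unadjusted p under 0.05, as 10.7%, 25.9% and 13.1% of all genes did. DESeq2 with its own size factors called 1 member in each of these strains, Ugt8a, beside 1.31%, 11.8% and 2.26% of all genes.

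The CHI effect was not shown to differ between the strains for any member. In 1 fit of all 68 mice at 9 h, the interaction of surgery with strain gave the lowest adjusted p to Ugt8a, at 0.90, and 0.00534% of genes were called. At 24 h the lowest adjusted p was 0.45, for Opalin, with 0.00541% of genes called, and at 72 h it was 1.00, with 0.00543% called. The interaction of surgery with sex had lowest adjusted p-values of 1.0, 0.99 and 0.92 among the members at 9, 24 and 72 h, where 0, 0 and 0.00543% of genes were called. A p that misses the threshold does not show that the strains or the sexes responded alike.

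With the 4 strains in 1 fit at 9 h, 46 CHI and 22 sham mice, 3 of the 9 members fell and none rose. Ugt8a had a log2 fold change of −0.59 ± 0.09, a fall of 33.5% (95% interval −0.76 to −0.41, adjusted p = 5.1e-07). Ermn fell by 21.4%, with −0.35 ± 0.09 (−0.52 to −0.17, adjusted p = 0.0020), and Opalin by 20.7%, with −0.33 ± 0.09 (−0.52 to −0.15, adjusted p = 0.0050). These are the enzyme of the main myelin galactolipid, a cytoskeletal protein of the mature cell and a surface glycoprotein. The other 6 members had values from −0.08 (Cnp and Mog) to 0.01 (Mal), and the interval for Mbp was −0.19 to 0.08. Over all 18741 genes, 23.9% were called and 11.9% were called lower, and the median log2 fold change was −0.00 against −0.08 over the 9 members. The pooled fit used the same mice as the fits of the single strains.

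**Figure D2:**
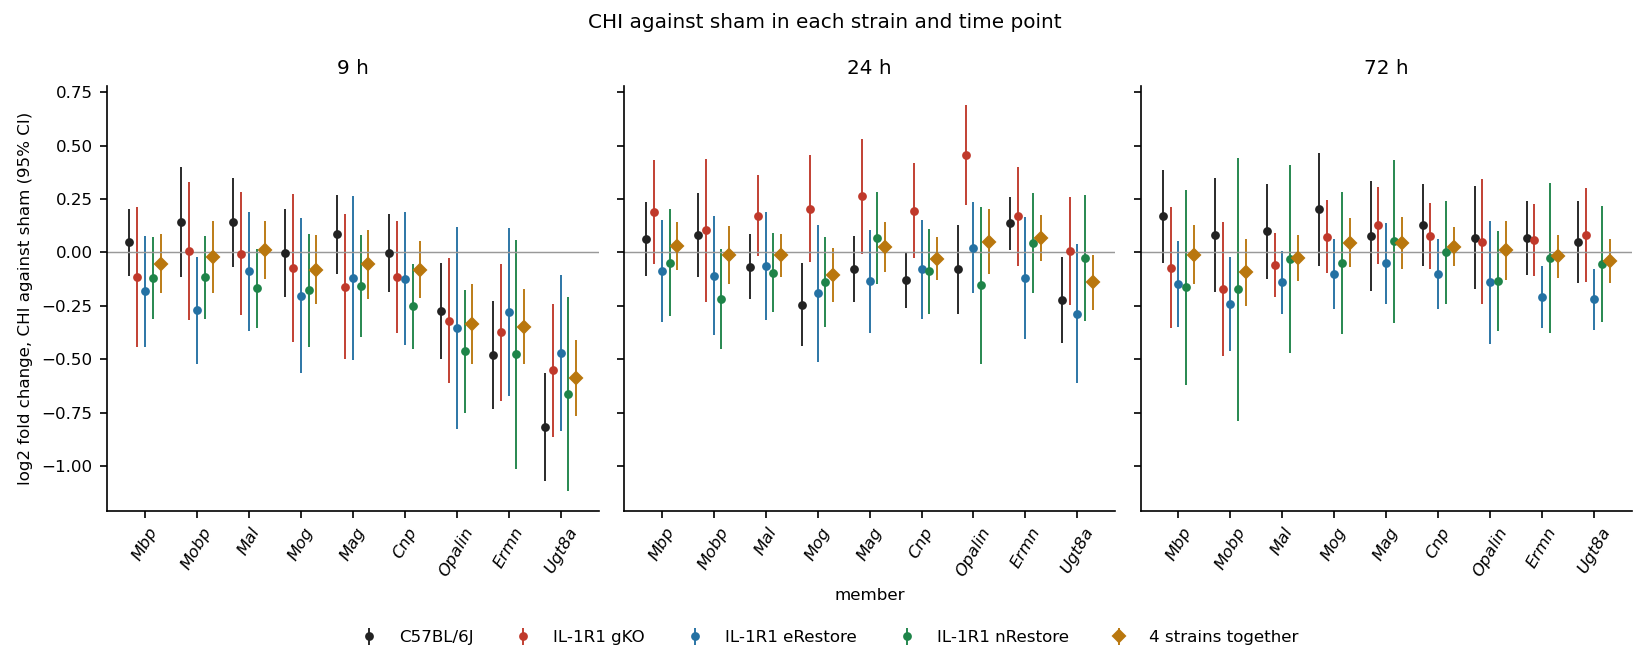
Log2 fold change of CHI over sham for each of the 9 myelin genes at 9, 24 and 72 h; circles are the 4 strains, diamonds the fit of the 4 strains together, and bars 95% intervals of the edgeR estimates. At 9 h the diamonds of Ugt8a (−0.59), Ermn (−0.35) and Opalin (−0.33) lie below 0 with their intervals, and those of the other 6 genes lie between −0.08 and 0.01.

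The mice killed at 9 h came from 3 experiments, and the 3 called members were lower in each of them. In experiment eIL-1-76 (22 CHI and 9 sham mice) Ugt8a had a log2 fold change of −0.58 ± 0.10, Ermn −0.28 ± 0.09 and Opalin −0.22 ± 0.11, with adjusted p-values of 2.8e-04, 0.048 and 0.22. In eIL-1-80 (12 and 7 mice) the values were −0.85 ± 0.14, −0.73 ± 0.16 and −0.67 ± 0.16, with adjusted p-values of 0.0015, 0.011 and 0.018. In TM-2-33 (12 and 6 mice, of IL-1R1 gKO and IL-1R1 nRestore) they were −0.74 ± 0.17, −0.53 ± 0.18 and −0.53 ± 0.12, with adjusted p-values of 0.039, 0.16 and 0.028. Ugt8a was thus called in all 3, and Ermn and Opalin in 2 of 3 each, where 8.14%, 8.44% and 1.77% of all genes were called. With experiment in place of age in the fit of all 68 mice, the values were −0.63 ± 0.08 for Ugt8a (adjusted p = 3.3e-09), −0.39 ± 0.08 for Ermn (adjusted p = 1.5e-04) and −0.37 ± 0.08 for Opalin (adjusted p = 5.0e-04), and 27.5% of genes were called.

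The other 6 members were near 0 or above in eIL-1-76 and below 0 in both other experiments. Mbp was at 0.02 in eIL-1-76, −0.30 ± 0.14 in eIL-1-80 and −0.22 in TM-2-33. Cnp was at 0.02, −0.34 and −0.28, with adjusted p-values of 0.071 and 0.087 in the latter pair. In the 10 CHI and 4 sham C57BL/6J mice of eIL-1-76, Ugt8a was lower (−0.79 ± 0.13, adjusted p = 0.0015) while Mag (0.25 ± 0.06, adjusted p = 0.024) and Mal (0.29 ± 0.07, adjusted p = 0.015) were higher, beside 7.12% of genes called. Ermn was not called there (−0.30 ± 0.10, adjusted p = 0.076), so its call in the C57BL/6J mice was lost in the larger experiment. In the 5 CHI and 2 sham C57BL/6J mice of eIL-1-80, Ermn was lower (−0.90 ± 0.17, adjusted p = 0.038), Ugt8a was at −0.94 ± 0.20 (adjusted p = 0.056), and Mag and Mal were at −0.25 and −0.17, beside 1.68% of genes called. One of these 2 sham mice was replicate 4, the mouse with the highest sham values of Mobp and Mal. Without it 1 sham mouse remained, assumed to vary like the CHI mice, and the 6 members lay between −0.19 ± 0.21 (Mog) and 0.02 ± 0.16 (Mobp), with Mal at 0.01 and Mag at −0.07, all nearer 0 than with it. Ugt8a was then at −1.31 ± 0.23 (adjusted p = 0.053) and Ermn at −1.09 ± 0.25 (adjusted p = 0.13), and none of the 9 was called beside 0.309% of genes. In the fit of all strains in eIL-1-80 without that mouse, the 6 members stayed below 0, from −0.38 (Mog) to −0.11 (Mal), Ugt8a (−0.90 ± 0.16) and Ermn (−0.70 ± 0.18, adjusted p = 0.049) were called beside 4.31% of genes, and Opalin was not (−0.61 ± 0.19, adjusted p = 0.084). These fits by experiment were added after the data were seen, and the difference between experiments was not tested.

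**Figure D3:**
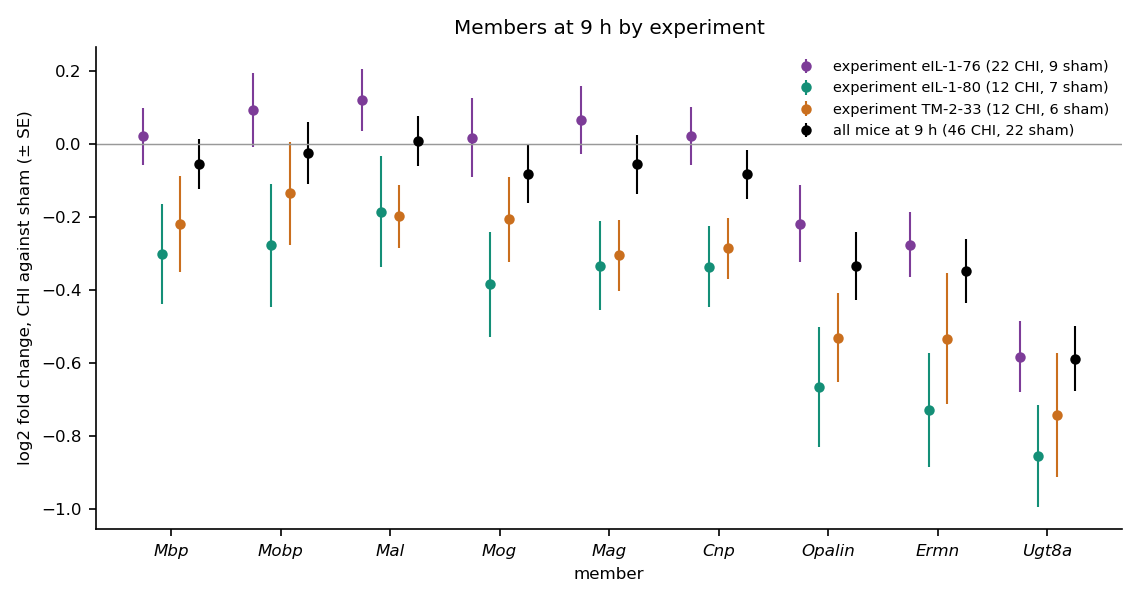
Log2 fold change of CHI over sham at 9 h for each myelin gene, in the mice of each of the 3 experiments that hold 9 h mice and in all 68 mice together; points are edgeR estimates and bars ± SE. Ugt8a lies between −0.85 and −0.58 in the 3 experiments, while Mbp runs from −0.30 to 0.02.

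At 24 and 72 h edgeR called no member in any strain. DESeq2 with its own size factors called Opalin in IL-1R1 gKO mice at 24 h, beside 0.708% of genes, as edgeR did without sham replicate 1 beside 0.0873%. With no low-count filter edgeR called Mog and Ugt8a in C57BL/6J mice at 24 h, beside 1.05% of genes. Ugt8a in C57BL/6J mice was at 78.1, 85.95 and 93.1 CPM in sham and 53.5, 73.3 and 91.9 CPM in CHI mice at 24 h (−0.22 ± 0.10, adjusted p = 0.49), and at 63.9, 89.9 and 102.4 CPM against 64.1, 85.9 and 106.6 CPM at 72 h. Ermn was at 110.97, 132.02 and 137.9 CPM against 123.1, 143.1 and 165.7 CPM at 24 h (0.14 ± 0.06, adjusted p = 0.50) and at 104.98, 127.7 and 147.9 CPM against 101.3, 132.8 and 151.7 CPM at 72 h. Opalin was at 14.7, 16.2 and 22.3 CPM against 10.7, 15.1 and 26.9 CPM at 24 h and at 13.99, 21.1 and 27.3 CPM against 12.97, 21.99 and 25.2 CPM at 72 h. Mog was at 49.2, 53.1 and 60.7 CPM against 32.7, 43.3 and 60.4 CPM at 24 h (−0.24 ± 0.09, adjusted p = 0.41). The CHI and sham ranges overlapped for these genes. At 24 h, 10 of the 14 C57BL/6J CHI mice were below every sham mouse for Ugt8a and 11 of 14 for Mog. For Ermn 9 of 14 were above every sham mouse. Cnp had 9 of 14 below every sham mouse and 1 above, Mag 7 and 1, and Mobp 0 and 7. For Mog, those below every sham mouse were 0 of 12 IL-1R1 gKO, 3 of 9 IL-1R1 eRestore and 3 of 8 IL-1R1 nRestore CHI mice. For Ugt8a they were 3, 5 and 0. The share of all genes with such counts was not computed, so nothing particular to the members is read from them. The member with the smallest unadjusted p at these times was Opalin in IL-1R1 gKO mice at 24 h. There sham mice measured 10.6, 12.6 and 17.5 CPM and CHI mice 11.6, 16.1 and 21.6 CPM, a positive value of 0.46 (adjusted p = 0.14). Experiment NiL-1-21 gave CHI mice but no sham mice of the IL-1R1 strains at 24 h. Surgery and experiment were therefore partly tied in these strains at that time.

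Over the 4 strains, the members' log2 fold changes ran from −0.29 to 0.46 at 24 h, where 15 of 36 values were positive, and from −0.24 to 0.20 at 72 h, where 16 of 36 were. The share of genes called at 24 h was 0.404% in C57BL/6J and 0.00590% in IL-1R1 gKO mice, and no gene was called in IL-1R1 eRestore or IL-1R1 nRestore mice. At 72 h it was 0.00605% in IL-1R1 eRestore and 0.0121% in IL-1R1 nRestore mice, and no gene was called in C57BL/6J or IL-1R1 gKO mice. In the 4 comparisons with no call, 1494 (IL-1R1 eRestore, 24 h), 740 (IL-1R1 nRestore, 24 h), 869 (C57BL/6J, 72 h) and 376 genes (IL-1R1 gKO, 72 h) had an unadjusted p under 0.05, and DESeq2 with its own size factors called 29, 3, 38 and 0. Across all 12 comparisons of CHI with sham in 1 strain at 1 time, 2 of 108 member values were called, beside 1.90% of all gene values in the same comparisons, so this count shows nothing particular to the members. In the pooled fit of 24 h, Ugt8a had −0.14 ± 0.06 (unadjusted p = 0.032, adjusted p = 0.30), Mog −0.11 ± 0.06 and the rest −0.03 to 0.07, with 0 members called beside 1.48% of genes. In the pooled fit of 72 h the members lay between −0.09 (Mobp) and 0.05 (Mog), with 0 called beside 0.706% of genes.

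The effect at 9 h differed from the later effects for the same 3 members. In a fit of all mice, the effect at 9 h minus that at 24 h was −0.47 ± 0.10 for Ugt8a (adjusted p = 0.00043), −0.42 ± 0.10 for Ermn (adjusted p = 0.00087) and −0.36 ± 0.12 for Opalin (adjusted p = 0.026). Against 72 h it was −0.56 ± 0.10 (adjusted p = 6.5e-06), −0.34 ± 0.09 (adjusted p = 0.0064) and −0.34 ± 0.11 (adjusted p = 0.026). No other member was called in either contrast, where 10.7% and 13.1% of genes were. This fit was added with the results at each time known. The 9 h mice and the later mice came from separate experiments throughout, so time after surgery and experiment cannot be told apart in it.

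Sham mice of the strains differed in myelin gene level. Over the 67 sham mice, with time point, sex and age in the fit, a joint test of strain called Mog (adjusted p = 0.029), Mag (0.031), Mal (0.0064) and Opalin (0.046), beside 9.68% of genes. Mal measured 202, 287 and 411 CPM in 18 C57BL/6J sham mice, 144.6, 237 and 340 CPM in 18 IL-1R1 gKO, 185.98, 241 and 317 CPM in 17 IL-1R1 eRestore and 177.3, 238 and 339 CPM in 14 IL-1R1 nRestore mice. Mog measured 30.99, 53.6 and 62.5 CPM in C57BL/6J, 26.95, 42.9 and 59.9 CPM in IL-1R1 gKO, 35.2, 44.4 and 58.7 CPM in IL-1R1 eRestore and 32.95, 44.4 and 64.7 CPM in IL-1R1 nRestore mice. The C57BL/6J median was the highest of the 4 for both genes, the other 3 medians lay close together, and the ranges overlapped.

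Taken strain by strain, a split added after the joint test was seen, all 9 members had lower values in IL-1R1 gKO than in C57BL/6J sham mice, from −0.26 to −0.36. The 7 called were Mog (−0.35 ± 0.09, adjusted p = 0.0065), Mag (−0.36 ± 0.09), Cnp (−0.26 ± 0.08), Mal (−0.35 ± 0.08, adjusted p = 0.0022), Opalin (−0.36 ± 0.10), Ugt8a (−0.30 ± 0.09) and Ermn (−0.26 ± 0.08), beside 4.51% of genes. Mbp (2118 CPM at the IL-1R1 gKO median against 2579 in C57BL/6J) and Mobp (820 against 1075) had adjusted p-values of 0.059 and 0.061. In IL-1R1 eRestore mice none was called beside 4.29% of genes, with 7 members and 15.8% of all genes at an unadjusted p under 0.05 and Mal the nearest (−0.25 ± 0.08, adjusted p = 0.052). In IL-1R1 nRestore mice only Mal was called (−0.27 ± 0.09, adjusted p = 0.027), beside 12.0% of genes. With experiment added, all 9 were called in IL-1R1 gKO, 3 (Mbp, Mobp and Mal) in IL-1R1 eRestore and 0 in IL-1R1 nRestore mice, where 4.45%, 5.05% and 2.06% of genes were called. Mal in IL-1R1 nRestore mice was then at −0.34 ± 0.10 (adjusted p = 0.052). The joint test of strain with experiment added called 7 members beside 4.23% of genes. The 3 contrasts share the C57BL/6J sham mice.

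With higher age 3 of the members were called lower, and none of these calls held with experiment in the fit. Over all 200 mice, with group and sex in the fit, Mog changed by −0.13 ± 0.03 log2 units per month (adjusted p = 0.030), Cnp by −0.11 ± 0.03 (adjusted p = 0.021) and Opalin by −0.15 ± 0.04 (adjusted p = 0.035). The other 6 members ranged from −0.06 (Mobp) to −0.12 (Mag and Ugt8a) and were not called. For comparison, 0.273% of 20111 genes were called for age, and 0.229% of the 20111 were called lower with age. Age was tied to experiment, and with experiment in the fit none of the 3 was called, with values of −0.10, −0.07 and −0.14 and adjusted p-values of 0.56, 0.60 and 0.43, beside 0.00497% of genes. No member was called for sex, for which 0.363% of genes were, and none had an unadjusted p under 0.05.

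The members varied together from mouse to mouse within the groups. With each gene's log2 CPM centred on its group of strain, surgery and time, 8 relations with Mbp were computed over 200 mice. Pearson's r was 0.85 for Mobp, 0.79 for Mal, 0.70 for Ermn and 0.69 for Mog, and Spearman's rho 0.81, 0.74, 0.67 and 0.68. It was 0.64 for Cnp, 0.63 for Mag, 0.61 for Opalin and 0.48 for Ugt8a, and rho 0.63, 0.62, 0.60 and 0.46. Each had a permutation p of 1e-05, adjusted p also 1e-05, the smallest that 100000 permutations can give. The test was not run for other genes with Mbp. No share over all genes therefore stands beside these 8, and passing it is not read as particular to the members. Leaving out the 2 mice farthest from the median of Mbp gave r from 0.46 (Ugt8a) to 0.84 (Mobp). Within the 8 experiments of 11 to 63 mice, r stayed between 0.80 and 0.98 for Mobp and between 0.37 and 0.86 for Ermn. It ran from −0.07 to 0.72 for Ugt8a, from 0.06 to 0.95 for Mag and from 0.06 to 0.94 for Cnp. The range was 0.25 to 0.94 for Mog, 0.29 to 0.75 for Opalin and 0.37 to 0.95 for Mal. For Mog, Mag, Cnp, Mal, Opalin and Ermn the lowest of the 8 values came from the same experiment, NiL-1-24 (20 mice). The next lowest was 0.61 for Mal, 0.58 for Opalin, 0.49 for Mog, 0.46 for Ermn, 0.35 for Cnp and 0.20 for Mag. Centred on experiment within group as well, r over the 200 mice ran from 0.47 (Ugt8a) to 0.89 (Mobp).

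Among the 36 pairs of members, r was lowest for Mobp with Ugt8a, 0.30, and highest for Mag with Cnp, 0.93, with a median of 0.69. These values share the library scaling of each mouse. The SD within groups was 0.23 (Cnp) to 0.30 (Opalin) log2 units, which sets the size of a difference that 4 to 15 mice can show. Of the 20111 genes, those most like the mean of the members over 200 mice included Septin4 (r = 0.88), Tmem88b (0.88), the tight-junction gene Cldn11 (0.86), Evi2a (0.85), Gatm (0.84), the ceramide synthase Cers2 (0.84), the connexins Gjb1 (0.83) and Gjc3 (0.82) and Trf, encoding transferrin (0.82).

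**Figure D4:**
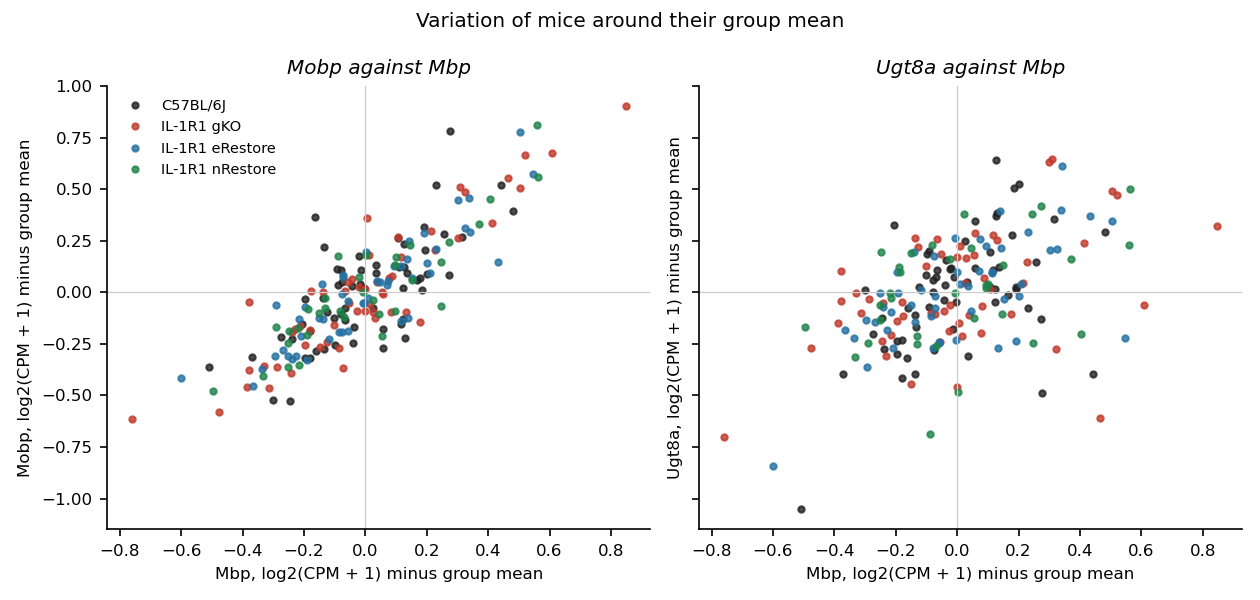
Mobp (left) and Ugt8a (right) against Mbp in 200 mice, as log2(CPM + 1) minus the mean of the mouse's group of strain, surgery and time; each point is 1 mouse and colours are the strains. The points lie closer to a line for Mobp (r = 0.85) than for Ugt8a (r = 0.48).

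Other genes of the oligodendrocyte and of myelin lipid were taken from lists, and counted in the pooled 9 h fit, where 23.9% of all genes were called and 11.9% called lower. Of 24 other mature oligodendrocyte and myelin genes, 11 were lower and none higher, with a median log2 fold change of −0.19 beside −0.00 over all genes. They included Aspa, which breaks down N-acetylaspartate (−0.44 ± 0.10), the carbonic anhydrase Car2 (−0.35 ± 0.06) and Fa2h, which hydroxylates the fatty acids of galactolipids (−0.35 ± 0.09). Enpp2, which the choroid plexus also expresses strongly, was lower by the widest margin and with the widest error (−0.77 ± 0.25). In C57BL/6J mice alone 7 of the 24 were lower and none higher, beside 7.00% of all genes called lower. In the pooled fits of 24 and 72 h none was lower, and 1 was higher at 72 h, Cd9 (0.31), beside 1.48% and 0.706% of all genes called.

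Precursor genes and transcription factors of the lineage went in both directions. Of 11 precursor and committed-precursor genes, Gpr17 (−0.63 ± 0.05), Enpp6 (−0.42 ± 0.08), C1ql1 (−0.38 ± 0.09) and Neu4 (−0.31 ± 0.08) were lower, and Pdgfra, the growth factor receptor that marks precursors, was higher (0.20 ± 0.04). Gpr17 and Enpp6 mark cells that have left the precursor state and are about to myelinate. The list also holds precursor and committed-precursor genes that were not called. It was not divided by stage, and a shift between stages was not tested. Of 10 transcription factors, Sox8 (−0.29 ± 0.05), Sox10 (−0.20 ± 0.07) and Zfp488 (−0.23 ± 0.08) were lower and Zfp24 was higher (0.10 ± 0.03). The medians of these lists were −0.06 and −0.09.

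Of 10 sphingolipid genes, which make ceramide or turn it into other lipids, Fa2h and Sptlc2 (−0.23 ± 0.04), a subunit of the first enzyme of the pathway, were lower and Kdsr was higher (0.14 ± 0.03). Of 16 cholesterol synthesis genes, 2 were lower, among them Cyp51 (−0.16 ± 0.04), and 2 higher, Fdft1 (0.24 ± 0.05) and Lss (0.16 ± 0.04). Of 7 genes of the myelin inhibitor axis, the pathway by which myelin proteins such as Mag halt axon growth, only the receptor Pirb was called, higher at 0.64 ± 0.20. None of 6 paranode genes was called. The counts of the cholesterol and sphingolipid lists, 4 of 16 and 3 of 10, are near the share of all genes called, and nothing is read from them. The list for stressed oligodendrocytes held 7 genes, which other cells also express. Of these, Plin4 (1.91 ± 0.20), Cdkn1a (1.14 ± 0.17) and Serpina3n (1.06 ± 0.14) were higher and none lower. In the pooled fits of 24 and 72 h, C4b (0.41 and 0.44) and Serpina3n (0.67 and 0.49) were higher and none lower. All genes called made up 1.48% and 0.706% in those fits.

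**Figure D5:**
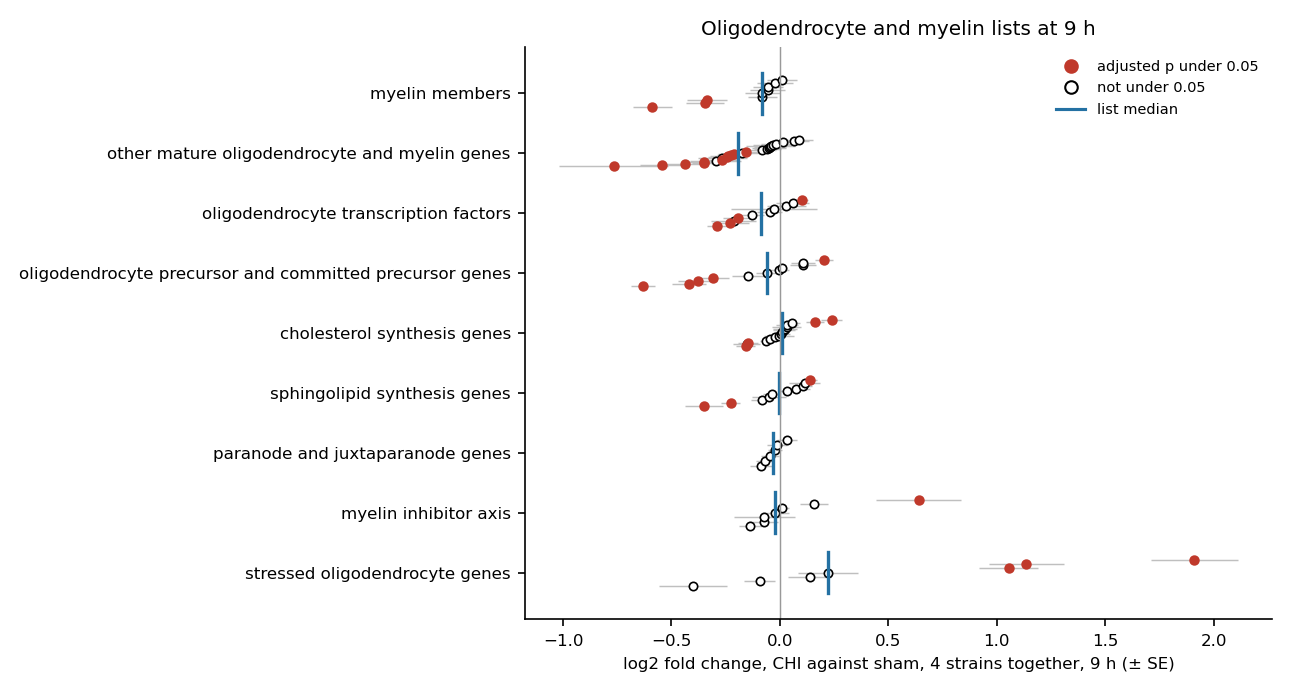
Log2 fold change of CHI over sham at 9 h, 4 strains together, for the genes of the oligodendrocyte and myelin lists; each point is 1 gene with its SE, filled where the adjusted p is under 0.05, and each vertical bar is the list's median. The 24 other mature oligodendrocyte genes have a median of −0.19 with 11 called lower, and the 9 members a median of −0.08 with 3 called lower.

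Markers of other cells and regions moved with surgery at 9 h as well. All 5 choroid plexus markers (median −1.99), 4 of 5 meningeal fibroblast markers (−0.67), 3 of 5 striatum markers (−0.57) and 4 of 6 microglia markers were lower, 2 of 6 astrocyte markers were higher, and 3 of 5 endothelial markers were higher with 1 lower. Of 6 neuron markers 1 was higher, and none of 5 cortex markers was called. In this fit 23.9% of all genes were called and 11.9% were called lower. The astrocyte and neuron counts are near or under the share called, and nothing is read from them. The summed choroid plexus markers ran from 9.41 to 6232 TPM in sham mice at 9 h, with a median of 49.2, and from 4.79 to 2505 TPM in CHI mice, with a median of 25.7. Summed striatum markers had medians of 101.1 TPM in sham and 72.1 TPM in CHI mice at 9 h (34.3 to 421 and 36.2 to 241), against 350 and 349 TPM at 24 h. Schwann cell markers, for myelin of peripheral nerve, summed to 0.64 to 6.5 TPM, and of the 4 tested Cldn19 was higher (0.50 ± 0.19, adjusted p = 0.043). Of 4 cerebellum markers Calb1 was lower (−0.32 ± 0.06).

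For choroid plexus and striatum, 2 fits were added after seeing the data. The part of the meningeal, microglial, astrocyte and endothelial markers in the 9 h result was not tested. Without the 9 CHI and 7 sham mice whose choroid plexus markers exceeded 100 TPM, Ugt8a stood at −0.57 ± 0.11 (adjusted p = 3e-04), Ermn at −0.35 ± 0.11 (adjusted p = 0.029) and Opalin at −0.32 ± 0.12 (adjusted p = 0.065). With the summed striatum markers as a covariate they stood at −0.55 ± 0.09, −0.30 ± 0.09 and −0.35 ± 0.10, with adjusted p-values of 4.9e-06, 0.0099 and 0.0057. In the pooled fit of all 9 h mice the 3 members were at −0.59, −0.35 and −0.33. Opalin was not called in the fit without the mice rich in choroid plexus markers. Of all genes, 14.2% were called without those mice and 20.3% with the striatum covariate. The 9 members together summed to 2364, 4000 and 5646 TPM in sham and 2217, 3935 and 5795 TPM in CHI mice at 9 h, which overlapped fully.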

How the data were processed

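Libraries of polyadenylated RNA from 200 mice were sequenced in pairs of reads. The study's methods name Novogene for library preparation and sequencing. The authors aligned the reads with STAR and quantified them with Salmon on GRCm39 through nf-core/rnaseq. The annotation release and the strand setting are not given in the sources used here. The deposited gene table of estimated counts was rounded to whole numbers, and the deposited TPM table, made by the authors, was used for levels between genes. Strain, surgery, time, sex, age and experiment came from the labels. Members and gene lists were chosen with earlier results of these data known. The genes named outside the members are those called in a list and, for likeness, the 10 with the highest r. Some genes that these rules name are not reported here.

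CHI was compared with sham by edgeR 4.0.16 (R 4.3.3; quasi-likelihood test, TMM scaling, robust dispersion, a low-count filter of 10 reads in a number of mice equal to that of the smaller group, sex and age as covariates, sex left out in IL-1R1 nRestore mice at 72 h), in each strain and time and with the strains pooled. Benjamini-Hochberg adjustment covered all genes tested, and a gene was called at an adjusted p under 0.05. The joint strain test used sham mice. A pseudocount of 1 CPM was used for correlations. DESeq2 1.42.0, gene-length offsets, other filters and covariates, leaving out mice, strains or experiments were the alternatives. Tested on simulated counts for C57BL/6J at 9 h (16771 genes), edgeR recovered 195 of 200 changed genes with 8 false calls. These were 95 of those changed 1.5-fold and 100 of those changed 2-fold. DESeq2 recovered 197 with 32 false calls. The simulation gave all genes the same dispersion, changed only genes with many reads, and held no variation between experiments, ages, sexes or tissue make-up. These counts therefore check the code and are not the power or the false calls of the real comparison. No mouse's counts repeated those of another. The labels name each sample as a separate mouse. The 9 h libraries had scaling factors of 0.888 to 1.03, and those of all strains reached 1.07.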

Additional observations from a re-analysis of the deposited data

Results flagged for a closer look

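With 9 genes in 16 groups of 4 to 10 mice, 13 pairs of a gene and a group had a highest or lowest mouse set far from the rest by Dixon's criterion at 95%, and these came from 10 mice. Chance alone flags about 1 in 20 such groups. A single IL-1R1 nRestore sham mouse at 72 h, replicate 4, was high in 4 genes: Mog at 59.3 CPM (the others 33.0 to 38.7), Cnp at 345 CPM (218 to 246), Mal at 339 CPM (177.3 to 212) and Ugt8a at 102 CPM (62.3 to 71.5). The other high values were Mbp in C57BL/6J sham replicate 6 at 24 h with 3297 CPM (2441 to 2722), Mag in IL-1R1 nRestore CHI replicate 6 at 72 h with 156.4 CPM (98.5 to 114), Cnp in IL-1R1 eRestore sham replicate 4 at 72 h with 358 CPM (261 to 290), Mal in C57BL/6J sham replicate 4 at 9 h with 411 CPM (246 to 291) and Ermn in IL-1R1 eRestore CHI replicate 9 at 24 h with 130 CPM (92.8 to 105.9). The low values were Mag in IL-1R1 nRestore sham replicate 1 at 24 h with 79.2 CPM (117 to 132), Mobp in C57BL/6J sham replicate 4 at 24 h with 938 CPM (1157 to 1230), Opalin in IL-1R1 gKO sham replicate 1 at 9 h with 8.87 CPM (14.3 to 18.7) and Ermn in IL-1R1 nRestore CHI replicate 2 at 9 h with 47.4 CPM (80.7 to 104). No cause was tested.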

How the results depend on the processing

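Counts of called members were recomputed under 226 other settings for 30 results, and 206 stayed within 1.5 times. A count of 0 that stayed 0 is among these, and many of the 30 results had no member called in the main fit. In IL-1R1 gKO mice at 9 h, 1 member (Ugt8a) was called by DESeq2 with either scaling and in 1 fit of all mice of the strain (beside 1.31%, 1.02% and 2.17% of genes), and in IL-1R1 eRestore mice 1 (Ugt8a) by DESeq2 with its own size factors and in 1 fit of the strain (11.8% and 9.11%). In IL-1R1 nRestore mice at 9 h, DESeq2 with either scaling called 1 (Ugt8a, beside 2.26% and 1.83% of genes), no covariates and 1 fit of the strain called 1 (Opalin, 1.36% and 1.80%), no filter called 3 (2.70%), and leaving out single sham mice gave 0 to 1 (1 without sham replicate 2, Ugt8a, adjusted p = 0.044, beside 1.27%). C57BL/6J mice of eIL-1-80 alone gave 1 at 9 h (1.68%) and 0 without sham replicate 4 (0.309%; 2567 genes at an unadjusted p under 0.05), and no filter gave 2 at 24 h (Mog and Ugt8a, 1.05%). In IL-1R1 gKO mice at 24 h DESeq2 called 1 (Opalin, 0.708%), and leaving out single sham mice gave 0 to 1 (1 without sham replicate 1, Opalin, 0.58, adjusted p = 0.028, beside 0.0873%). With experiment added, the joint strain test called 7 (4.23%), IL-1R1 eRestore 3 (5.05%), IL-1R1 nRestore 0 (2.06%) and age 0 (0.00497%). In the pooled 9 h fit, Ugt8a was called in every setting run (−0.90 to −0.50), Ermn was lost without C57BL/6J mice (−0.31, adjusted p = 0.055) and in TM-2-33 alone, and Opalin in eIL-1-76 alone, in eIL-1-80 without that mouse and without mice rich in choroid plexus markers. Of 236 settings for 32 single-gene results, 210 kept their side of the threshold, 13 lost it, 13 gained it and 0 reversed. The cause was not tested. No paired analysis was possible because the labels give no number that pairs single mice across groups. Experiment, in place of age, moved no count of called members by over 1.5 times. Opalin, at a median of 340.5 reads, had the lowest depth.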
